A study of Mus musculus with 5 samples.

Results

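Hepatocyte-like barcodes were looked for in the cells that fluorescence-activated cell sorting (FACS) had collected from tumour-bearing mouse liver. A barcode was taken as a member if the UMIs of Alb, Apoa1, Apoa2, Ttr and Fabp1 together reached 500 per 10000 of its UMIs and it held 0 UMIs of Pecam1, an endothelial adhesion molecule, and of Ptprc, the CD45 antigen of leukocytes. A UMI (unique molecular identifier) counts 1 captured RNA molecule. In the VitA-Col1a1- library 322 of 9870 barcodes were members, 3.26% with a 95% Clopper-Pearson interval of 2.92 to 3.63%. In the VitA-Col1a1+ library 5 of 2729 were, 0.183% with an interval of 0.0595 to 0.427%. Both libraries together gave 327 members of the 24007 barcodes in the 5 libraries of the series. The members were chosen by these measured values, so every level of a gene in members beside the other barcodes of the library is a description and carries no test.

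Hepatocytes are the parenchymal cells of the liver. They secrete most of the plasma proteins, make urea from ammonia, make bile acids and glucose, store and export lipid, and oxidise ethanol and foreign compounds. Their tasks differ along the lobule, with urea synthesis and gluconeogenesis stronger near the portal vein and glutamine synthesis and much of the cytochrome P450 activity stronger near the central vein. In mouse hepatocarcinogenesis, altered hepatocytes can re-express fetal genes such as Afp.

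All animals were male Rosa26mTmG;Col1a1-Cre mice on the C57BL/6J background, in which Cre driven by Col1a1 turns on GFP. The DEN+WAD mice received 10 mg/kg diethylnitrosamine (DEN), a liver carcinogen, at 2 weeks of age and from 6 weeks on a liquid Western alcohol diet (WAD) with 3.5% (v/v) ethanol for 5 months, and the control mice received saline and chow. Livers were perfused with pronase and collagenase to free non-parenchymal cells, and vitamin A (VitA) autofluorescence and GFP set the gates. The labels give hepatic stellate cell as the cell type of every library, including the VitA-Col1a1- library, whose name holds neither signal of that cell, and they do not give the number of animals behind a library. With 1 library for each group, differences between groups are without replicates, and all intervals cover counting error within a library only.

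The 3 DEN+WAD libraries held 2729 to 10481 barcodes and 47633435 to 149936344 UMIs. The VitA+Col1a1+ DEN+WAD library held 7 barcodes that met the same rule, 0.0668% with an interval of 0.0269 to 0.138%. The chow libraries held 0 of 668 in VitA-Col1a1+ and 0 of 259 in VitA+Col1a1+, which by a floor of 3 barcodes allows shares of up to 0.449% and 1.16% (Clopper-Pearson upper limits 0.551% and 1.41%). There was no chow library with the VitA-Col1a1- gate, so the share in that gate without DEN+WAD was not measured, and the difference between the 3 gates is one within DEN+WAD. Of the 322 members 0 had a barcode that was also in another library, against 28 shared barcodes in the whole VitA-Col1a1- library. Scrublet, a caller of doublets (droplets with more than 1 cell), marked 289 of its 9870 barcodes (2.93%) and 0 of the members, and no barcode was removed.

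The summed rule genes left few barcodes near the limit. The 10 members just inside lay between 503.9 and 519.3 per 10000, the 10 other barcodes just outside between 478.8 and 496.7, and 119 barcodes lay between 250 and 500. A further 10 barcodes passed 500 but held a UMI of Pecam1 or Ptprc and were left with the others. The other 9548 barcodes had a median of 3.49 per 10000, and the members, with 3.50% of the library's UMIs, held 75.3% of all UMIs of the 5 genes. RNA of these genes was also spread through barcodes of other types. In 80 barcodes that held endothelial or macrophage markers and no others (median 1350.5 UMIs) the 5 genes made 13.7 per 10000, and at 2000 UMIs per barcode Alb was seen in 16 of 31 of them (51.6%), in 34.9% of all other barcodes (76.3% unthinned) and in 128 of 128 members of that depth.

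UMI totals of the members were far more uneven than those of the other barcodes. Members had 501 to 91362 UMIs, with a median of 1355.5 and quartiles of 767 and 6356.5, and a median of 564.5 genes. The other barcodes had a median of 9235.5 UMIs and 3061 genes. Members fell into many barcodes with little RNA and few with very much, with 127 below 1000 UMIs, 67 between 1000 and 2000, 4 between 15000 and 20000, 5 between 20000 and 30000, 21 between 40000 and 60000 and 24 of 60000 or more. Members are described below on either side of 20000, a limit chosen after these values were seen. The 57 high-UMI members had a median of 53084 UMIs and 5828 genes and held 83.9% of all UMIs of members. The 265 low-UMI members had medians of 1051 UMIs and 431 genes. Among the other barcodes 1019 reached 20000 UMIs. Among barcodes of at least 2000 UMIs alone, 128 members remained and their median of 12077 UMIs lay above the 10267 of the others.

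**Figure D1:**
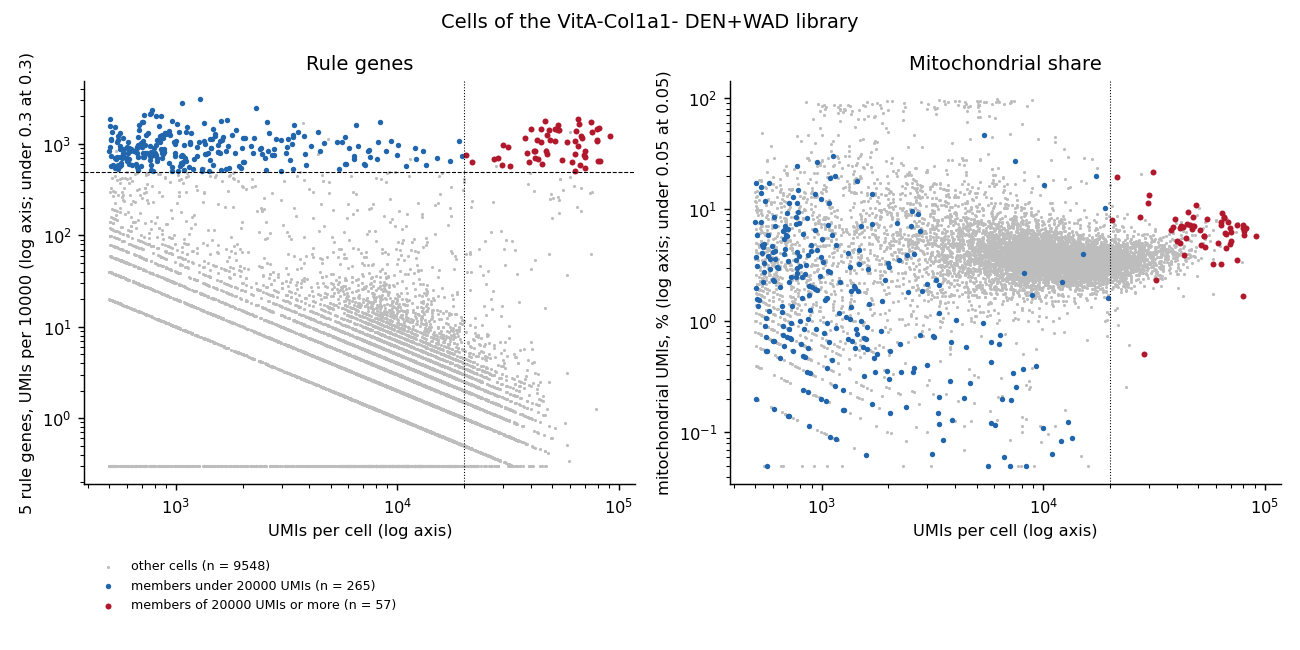
Each point is a barcode of the VitA-Col1a1- DEN+WAD library, placed by its UMIs (x, log axis) and by the UMIs of the 5 rule genes per 10000 (left, log axis) or the mitochondrial share in percent (right, log axis); grey points are the other 9548 barcodes, blue the 265 members under 20000 UMIs and red the 57 members of 20000 or more. The dashed line is the limit of 500 per 10000 and the dotted lines are 20000 UMIs; red points lie mostly above the grey cloud in the right panel and many blue points lie below it.

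The share of UMIs from the 13 mitochondrial genes lay above that of the other barcodes in high-UMI members and below it in low-UMI members. Over all members the median was 2.47%, with an interval of 1.94 to 3.20%, against 3.62% in the other barcodes. High-UMI members had a median of 6.77% with quartiles of 5.21 and 7.72%, and the other barcodes of 20000 UMIs or more had 3.60% with quartiles of 3.01 and 4.28%. The quartiles of these 2 sets did not overlap. Low-UMI members had a median of 1.61%. Within ranges of UMIs the median in members was 2.92% at 500 to 1000 UMIs (other barcodes 2.59%), 1.09% at 1000 to 2000 (4.82%), 0.653% at 2000 to 5000 (4.74%), 0.356% at 5000 to 10000 (3.77%) and 1.93% at 10000 to 20000 (3.42%). Members were therefore below the other barcodes of like depth in each range from 1000 to 20000 UMIs, and 18 of the 22 members with 5000 to 10000 UMIs had less than 1% mitochondrial UMIs, as had 29 of the 2916 other barcodes there.

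Malat1, a long non-coding RNA kept in the nucleus, followed the same division. It reached 10 UMIs per 10000 in 53 of 57 high-UMI members (93%) and in 97.4% of the other barcodes of that range. Of the members with 2000 to 5000 UMIs 0 of 39 reached it, against 83.7% of the other barcodes, and of those with 5000 to 10000 UMIs 3 of 22 did (13.6%), against 96.4%. With every barcode thinned to 500 UMIs, Malat1 had a UMI in 50 of 57 high-UMI members, 49 of 265 low-UMI members and 86.1% of the other barcodes. Neat1, another nuclear long non-coding RNA, had 13 of 57 and 5 of 265 at that depth. On summed UMIs scaled to 1000000 (CPM) Malat1 stood at 8483 in high-UMI members, 2845 in low-UMI members and 14072 in the other barcodes. Of the 1696 Malat1 UMIs of low-UMI members, 1598 were in 12 members of 5000 to 20000 UMIs, and the ranges below stood at 588, 359 and 103 CPM. The number of genes did not divide the members in this way, with medians of 884 genes in high-UMI members and 838 in the 71 members of 2000 to 20000 UMIs once all were thinned to 2000 UMIs, against 1094 in the other barcodes.

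**Figure D2:**
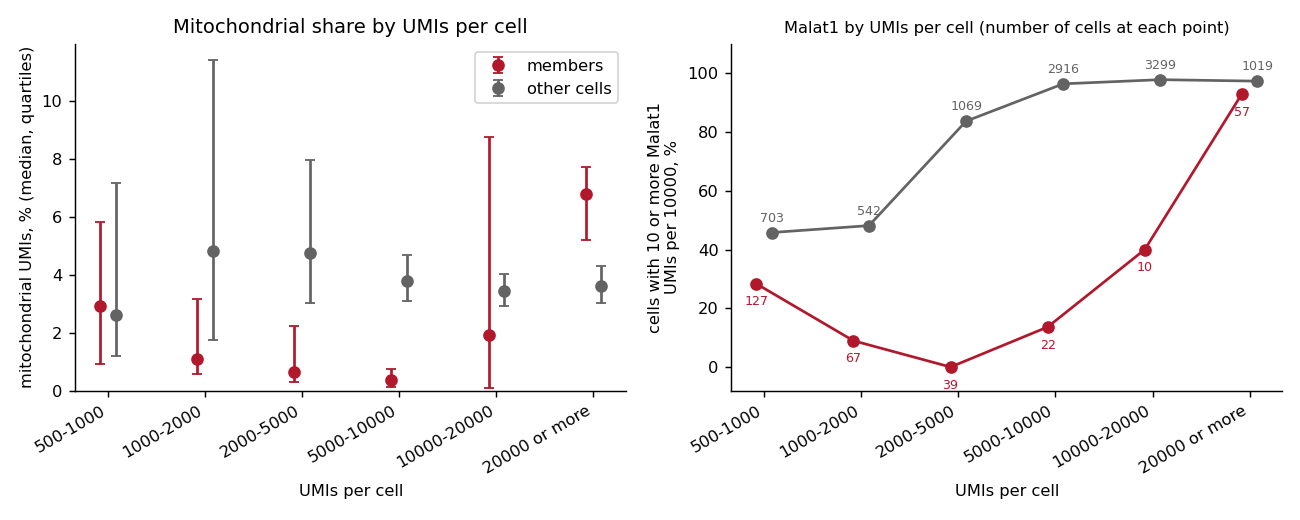
The left panel plots the median mitochondrial share in percent with its quartiles (bars) by range of UMIs per barcode, and the right panel the percent of barcodes with 10 or more Malat1 UMIs per 10000, with the number of barcodes beside each point; members are red and other barcodes grey. From 1000 to 20000 UMIs the red points lie below the grey ones in both panels, and at 20000 or more the mitochondrial median of members (6.77%) lies above that of the others (3.60%).

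Secreted proteins of the liver were high in both kinds of member. Albumin mRNA (Alb) stood at 56103 CPM in high-UMI members, 38155 in low-UMI members and 615 in the other barcodes, and Apoa1, the main protein of HDL, at 33352, 19016 and 310. These are rule genes, and so are Ttr, a thyroxine and retinol carrier, at 7470 and 8240 CPM in high-UMI and low-UMI members and Apoa2, another HDL protein, at 6133 and 10810. Fabp1, which binds fatty acids in the cytoplasm, was the most uneven rule gene, at 2614 CPM in high-UMI members and 15501 in low-UMI members, and was seen in 191 of the 265 low-UMI members.

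The rule did not use the other plasma protein genes. Over the whole library 8558 genes reached a mean of 10 CPM over members and other barcodes, of which 12.6% were more than 2-fold higher in members and 40.3% more than 2-fold lower, and the median gene lay at a log2 ratio of -0.70. Against that background 32 of 32 plasma protein genes were more than 2-fold higher in members, with a median ratio of 48.6. Serpina1e, a copy of the alpha-1 antitrypsin gene, was 123-fold higher in members (counting interval 117 to 128), and Ahsg, which encodes fetuin-A, 64.7-fold (63.7 to 65.6). The fibrinogen chain Fgb was 61.2-fold higher, transferrin (Trf) 53.0-fold and the lipoprotein inhibitor Apoc3 72.1-fold. Apoe, which macrophages and stellate cells also make, was only 2.09-fold higher, at 25257, 24067 and 12018 CPM in high-UMI members, low-UMI members and other barcodes. The Serpina1 copies are nearly identical in sequence, so the division of UMIs between them is uncertain.

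Other genes were among those with the highest ratios in members. Outside the lists, Apom, the apolipoprotein of HDL that carries sphingosine 1-phosphate, was 122-fold higher (114 to 130), Rdh16f2, of the retinol dehydrogenase family, 137-fold (109 to 173), and Spp2, a secreted phosphoprotein, 91.6-fold (78.7 to 107). Tff3, a trefoil peptide, was 166-fold higher (113 to 252) and rested on 187 UMIs, in 19 high-UMI and 21 low-UMI members. At the other end Lyve1 and Kdr, of sinusoidal endothelium, the scavenger receptor gene Msr1 and the haemoglobin gene Hba-a2 had 2, 8, 3 and 2 UMIs in all members. Kdr stood at 353 CPM in the other barcodes.

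Acute phase genes, which hepatocytes induce in inflammation, were higher in members for 14 of 18 tested and lower for 1. Haptoglobin (Hp) stood at 6812 CPM in high-UMI members, 5038 in low-UMI members and 150 in the other barcodes. Lcn2, an iron-siderophore binding protein of the acute phase, stood at 848, 1258 and 36.0 CPM. Saa1, a serum amyloid A gene, was present in low-UMI members at 203 CPM in 38 of them and had 6 UMIs in 2 of the 57 high-UMI members (1.94 CPM, near the 1.85 CPM of the other barcodes). Orm1, which encodes an acid glycoprotein of plasma, was likewise lower in high-UMI members (140 against 1205 CPM).

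Enzymes of urea synthesis and amino acid breakdown were higher in members for 18 of 20 genes. Cps1, which makes carbamoyl phosphate, was 58.3-fold higher (52.0 to 65.3), Otc, the next enzyme of the cycle, 54.5-fold, Arg1, which releases urea, 37.8-fold and Ass1, which makes argininosuccinate, 22.4-fold. The 2 genes that were lower were Glul, glutamine synthetase, and Oat, ornithine aminotransferase, both of the hepatocytes around the central vein. Glul stood at 10.0, 43.6 and 146 CPM in high-UMI members, low-UMI members and other barcodes, and Oat at 10.3, 28.5 and 210 CPM.

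Glucose genes were higher for 9 of 9 tested, among them Pck1, the entry enzyme of gluconeogenesis (46.7-fold), and Fbp1, a later enzyme of that pathway (45.5-fold). Of the cytochrome P450 and alcohol genes 14 of 17 were higher and 0 lower. Adh1, the main alcohol dehydrogenase, was 44.3-fold higher (40.6 to 48.4), whereas Aldh2, which clears acetaldehyde in mitochondria of many cell types, was 1.71-fold higher. Cyp2e1, the ethanol-inducible P450 enzyme that also activates DEN, was 2.25-fold higher over all members, with 36.8 CPM in high-UMI members, 289 in low-UMI members and 34.4 in the other barcodes. The low-UMI members were thus 8.38-fold higher than the others. A single barcode gave 53.5% of the 114 Cyp2e1 UMIs of the high-UMI members, and 7 of the 57 had any. With the rule set at 1000 per 10000, which leaves 121 members, the Cyp2e1 ratio of members to other barcodes was 0.971, below 1. Of the bile acid and transport genes 7 of 9 tested were higher, among them Abcb11, the bile salt export pump, at 47.3-fold (34.4 to 65.6).

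Lipid genes were mixed, with 14 of 21 tested higher and 2 lower, and a median ratio of 2.92. Scd1, the stearoyl-CoA desaturase of hepatocytes, stood at 716 CPM in high-UMI members, 861 in low-UMI members and 86.0 in the other barcodes, 8.59-fold higher in members. Scd2, the desaturase that the study followed in stellate cells, stood at 91.3, 33.6 and 67.1 CPM. Plin2, which coats lipid droplets, was 3.38-fold higher in members. The lower genes were Fabp4, of adipocytes, macrophages and endothelium, and the fatty acid receptor Cd36.

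Of the 16 transcription factors of the hepatocyte list 12 were tested, with 8 higher and 2 lower. Hnf4a, the nuclear receptor that maintains hepatocyte identity, stood at 106 CPM in high-UMI members, 72.1 in low-UMI members and 3.55 in the other barcodes, and Foxa3, a forkhead factor, at 108, 70.5 and 3.29 CPM. At least 1 Hnf4a UMI was seen in 55 of 57 high-UMI members. Over the 11 lists of hepatocyte functions together, from plasma proteins to the major urinary proteins, 131 of 153 tested genes were higher in members and 7 lower, with a median ratio of 26.2. A gene can pass the minimum of 10 CPM through the members alone, and with that minimum set over all barcodes of the library 75 were higher and 7 lower. The counts of single lists use the mean over the 2 groups, so they can include genes that passed through the members alone.

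Markers of other cell types were low in members. All 16 stellate and fibroblast markers, 14 of 14 endothelial and 12 of 12 macrophage markers were more than 2-fold lower. Together 71 markers of 9 other types made 8.27 UMIs per 10000 in members (6.47 in high-UMI and 17.6 in low-UMI members) and 308 in the other barcodes. They exceeded 10 per 10000 in 187 of 322 members, of which 183 were low-UMI, with a median of 22.7 and a highest value of 201 per 10000 over the 265 low-UMI members. The median of the other barcodes was 263. In the 4 high-UMI members above 10 per 10000 they made 25.6 to 55.8, and the stellate list led in each.

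Cholangiocyte markers were the exception, with 57.3 per 10000 in members and 7.16 in the other barcodes, and all 3 tested were higher: Clu, Spp1 and Sox9. Clusterin (Clu), a secreted chaperone, and osteopontin (Spp1), a matrix cytokine, made nearly all of it, since without them the list came to 0.631 against 0.340 per 10000. Spp1 was 6.09-fold higher in members overall and 0.722-fold in the 9 members that reached 2000 per 10000 for the rule genes. Unthinned, it was seen in 30 of 57 high-UMI and 22 of 265 low-UMI members. In the 160 low-UMI members without the Mup UMIs described below, a single barcode gave 81.6% of its 1171 UMIs. The keratins that define bile duct cells were at or near 0, with 1 UMI of Krt19 and 1 of Krt7 in all 322 members and 9 of Epcam.

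The markers given with the label, Alb, Apoa1 and Ttr, are rule genes and were seen in 57, 57 and 57 of the high-UMI members and in 265, 265 and 257 of the low-UMI members. The 80 barcodes with endothelial or macrophage markers give the level of each gene in barcodes of other types. Whether those UMIs come from free RNA, and the part of free RNA in the levels of low-UMI members, was not tested. For every 1000 Alb UMIs the low-UMI members held 406 Fabp1, 106 Mup3, 70.4 Serpina3k and 94.2 Serpina1e UMIs, and the high-UMI members 46.6, 13, 7.85 and 45.0. Those 80 barcodes held 218 Fabp1 (counting interval 146 to 317), 89.7 Mup3 (47.9 to 155), 103 Serpina3k (57.2 to 172) and 6.41 Serpina1e (0.161 to 36.2), from 34, 14, 16 and 1 UMIs. In those barcodes Mup3 and Serpina3k lay nearer the low-UMI members, Fabp1 between both kinds of member and Serpina1e below both. Other genes went either way. For every 1000 Alb UMIs, Ttr stood at 122 (71.4 to 197), against 133 in high-UMI and 216 in low-UMI members. Apoa2 stood at 269 (187 to 381), against 109 in high-UMI and 283 in low-UMI members.

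The 2 kinds of member differed in many hepatocyte genes. Of 6582 genes with a mean of 10 CPM over both, 19.3% were more than 2-fold higher in high-UMI members and 7.06% more than 2-fold lower, around a median log2 ratio of 0.21. Over the lists of hepatocyte functions 16 of 166 were higher and 43 lower, with a median ratio of 0.844. The lower ones were 10 of 11 major urinary protein genes, 9 of 20 of the urea and amino acid list, 7 of 10 pericentral, 6 of 11 bile acid and transport, 6 of 18 P450 and alcohol and 4 of 13 periportal genes. A gene can pass the minimum through 1 kind of member alone. Mup1, Mup7, Mup9, Mup11 and Mup17 passed only through the low-UMI members, so their being counted as lower was set by that minimum. Plasma proteins were close in level, with 2 of 32 higher and 3 lower. The levels in members are plotted for 28 genes by UMI class.

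**Figure D3:**
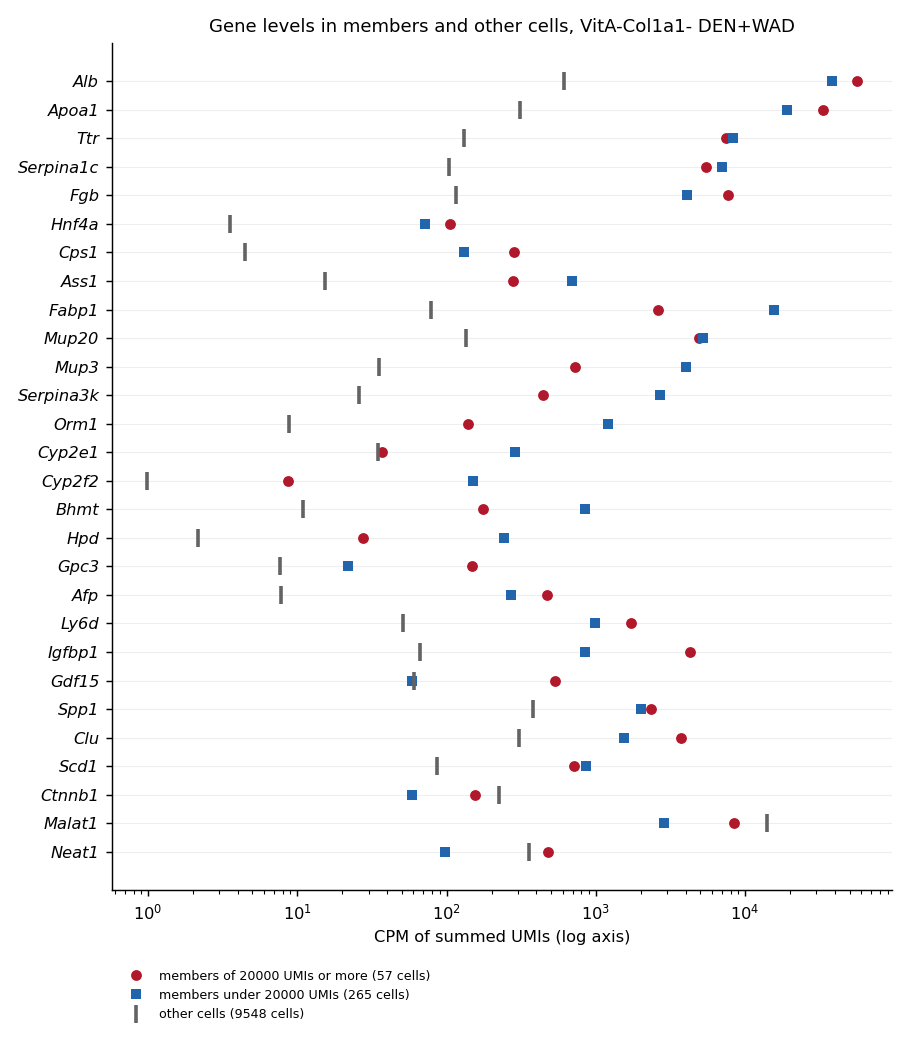
CPM of summed UMIs (x, log axis) for 28 genes (y) in the VitA-Col1a1- DEN+WAD library; red circles are the 57 members of 20000 UMIs or more, blue squares the 265 members under 20000 and grey bars the other 9548 barcodes, with 1 library and no error bars. Alb, Ttr and Serpina1c lie close in both kinds of member, Mup3, Orm1, Cyp2e1 and Hpd lie to the right in low-UMI members, and Igfbp1, Gdf15 and Gpc3 to the right in high-UMI members.

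Major urinary proteins carry pheromones into the urine and are made by hepatocytes of adult male mice in large amounts. Mup9 had 2 UMIs in the 57 high-UMI members (0.645 CPM) and 245 in low-UMI members (411 CPM), and Mup1 had 3 and 198 UMIs (0.968 and 332 CPM). Mup7 had 1 and 80 UMIs. These genes lie on chromosome 4 of mm10, Mup7 at 60066469 to 60070475, Mup9 at 60418046 to 60421952 and Mup1 at 60498012 to 60501960, all protein-coding and on the minus strand. Mup3, at 62083476 to 62087342 of that chromosome, was lower as well, at 730 against 4036 CPM. Its neighbour Mup20 (darcin), at 62050234 to 62054158, was not, with 4938 CPM in high-UMI and 5221 in low-UMI members and 135 in the other barcodes. Over all members the 8 genes of the family tested were higher than in the other barcodes, with a median ratio of 14.0, but for 5 of them only through the low-UMI members. In the other barcodes Mup9 stood at 9.48 CPM, Mup1 at 3.56, Mup7 at 1.72, Mup11 at 5.23 and Mup17 at 7.11, each above its level in high-UMI members (1.29 CPM for the last 2). Its copies are nearly identical, so the UMIs assigned to single members of it are uncertain.

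Some genes of drug and bile acid handling and of amino acid breakdown were lower in high-UMI members, while 12 of 18 P450 and alcohol genes and 4 of 11 bile acid and transport genes were within 2-fold and 1 of the latter was higher. Slco1b2, an organic anion importer, stood at 20.7 CPM in high-UMI and 173 in low-UMI members, Slc10a1, the sodium-coupled bile acid importer, at 10.0 and 92.3, and Cyp3a11, a main drug-metabolising P450 enzyme, at 24.2 and 148 CPM. Cyp8b1, of cholic acid synthesis, had 2 and 25 UMIs. Hpd, of tyrosine breakdown, stood at 27.8 and 242 CPM and Bhmt, which methylates homocysteine, at 175 and 842. The ratios of low-UMI to high-UMI members ran from 4.81 for Bhmt to 9.22 for Slc10a1, apart from Cyp8b1, whose ratio of 65.0 rests on 2 UMIs in high-UMI members. The low-UMI values depend on the UMI range. Slco1b2 stood at 611 CPM below 1000 UMIs and 305 at 1000 to 2000, and Cyp3a11 at 511 and 272, above their class values. Hpd and Bhmt, at 111 and 455 CPM below 1000 UMIs, lay below theirs.

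With all members included, high-UMI members were higher in a smaller set of hepatocyte genes. Cps1 stood at 283 CPM against 131, a ratio of 2.16 (1.71 to 2.76), and Ahsg at 17920 against 8920. The tyrosine aminotransferase gene Tat stood at 181 and 58.7 CPM. Onecut1, a liver-enriched factor, was 7.02-fold higher with 73 and 2 UMIs, which gives an interval of 1.88 to 59.1.

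Stress and signalling genes were higher in high-UMI members for 12 of 22 immediate early and heat shock genes and 5 of 11 genes of the endoplasmic reticulum and integrated stress list. In each list 1 gene was lower, and among all genes tested 19.3% were higher and 7.06% lower. Gdf15, a stress cytokine, stood at 534 CPM in high-UMI members, 58.7 in low-UMI members and 60.4 in the other barcodes, a ratio of 9.10 (6.51 to 13.1) between the 2 kinds of member. Thinned to 2000 UMIs, it was seen in 33 of 57 high-UMI members and 6 of the 71 members of 2000 to 20000 UMIs. Igfbp1, an insulin-suppressed binding protein of IGFs that was named after its values were seen, stood at 4289, 842 and 66.6 CPM and was found at 500 UMIs per barcode in 45 of 57 high-UMI and 49 of 265 low-UMI members. In low-UMI members a single barcode gave 50.2% of its UMIs. Beside the other barcodes 16 of the 22 immediate early and heat shock genes were lower in members and 0 higher, while 3 of 10 tested of the stress list were higher and 0 lower. In that comparison 40.3% of all genes tested were lower and 12.6% higher. Fos and Jun, immediate early factors often induced by tissue digestion, were lower in members than in the other barcodes, at 0.271-fold and 0.385-fold, and Btg2, an antiproliferative immediate early gene, stood at 1486, 349 and 805 CPM.

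Some fetal and tumour-associated genes were present in both kinds. Of 15 tested 7 were higher in members than in the other barcodes and 6 lower, with a median ratio of 1.62. Among all genes tested 12.6% were higher and 40.3% lower, so the share lower was near that of all genes. Afp, Ly6d, Akr1c18 and Gpc3, described here, all lie on the higher side. Afp (alpha-fetoprotein), which lies beside Alb on chromosome 5 (90490737 to 90508907, with Alb at 90460897 to 90476602), stood at 472 CPM in high-UMI members, 270 in low-UMI members and 7.76 in the other barcodes. At 500 UMIs per barcode it was seen in 10 of 57, 21 of 265 and 0.230% of them. Ly6d, a surface antigen, stood at 1720, 990 and 50.9 CPM and was seen at that depth in 26 of 57, 50 of 265 and 1.51%. Akr1c18, a hydroxysteroid dehydrogenase, stood at 275, 364 and 5.54 CPM.

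Gpc3 (glypican-3), an oncofetal proteoglycan on chromosome X (52272426 to 52613950), stood at 149 CPM in high-UMI members, 21.8 in low-UMI members and 7.69 in the other barcodes. The ratio of 6.84 between the 2 kinds of member (3.96 to 12.9) rested on 462 and 13 UMIs, and 1 barcode held 31.6% of the former. It was seen at 500 UMIs in 3 of 57 and 2 of 265 members. With 8 further marker genes required to be at 0, which leaves 3 high-UMI members, the ratio was 0.348. Proliferation genes were few, with 5 UMIs of Mki67 in all members and 29 of Birc5, of which a single high-UMI member gave 88.5% of the 26 in its class. Meg3, a maternally expressed imprinted RNA named after its values were seen, had 419 UMIs in 26 high-UMI members and 3 UMIs in 2 low-UMI members, a ratio of 26.9 with an interval of 9.13 to 131.

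Receptors and pathway genes that the study followed were mostly level with or below the other barcodes, as were most genes of the library. Ltb4r2, the receptor for 12-HHTrE, had 1 UMI in all members, which does not allow a level to be given. Ctnnb1, beta-catenin, stood at 156, 58.7 and 224 CPM in high-UMI members, low-UMI members and other barcodes, Yap1 at 26.1, 11.7 and 42.7 and Cyr61, a YAP target, at 219, 99.0 and 388. Cyp1b1, a P450 enzyme of mesenchymal cells, had 4 UMIs in members against 25.7 CPM in the other barcodes. Of the 14 genes tested in this list 1 was higher in members (Scd1) and 8 lower, beside 40.3% lower among all genes tested.

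High-UMI members were not alike. Per 10000 UMIs of a barcode, Alb ranged from 146 to 1091 with a median of 507, and Apoa1 from 94.5 to 623 with a median of 323, a narrow range that the rule, which sums both genes, helps to set. Igfbp1 and Clu were also present in all 57, at medians of 34.1 and 25.7. Mup20 ranged from 0 to 184 with a median of 24.3 and Serpina1e from 0 to 214 with a median of 3.71, with 10 members at 0. Ly6d ranged from 0 to 109 with 14 members at 0 and Afp from 0 to 78.9 with 10 at 0. Spp1 was the most uneven of those plotted, at 0 in 27 of 57, with a median of 0.125 and a highest value of 381.

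**Figure D4:**
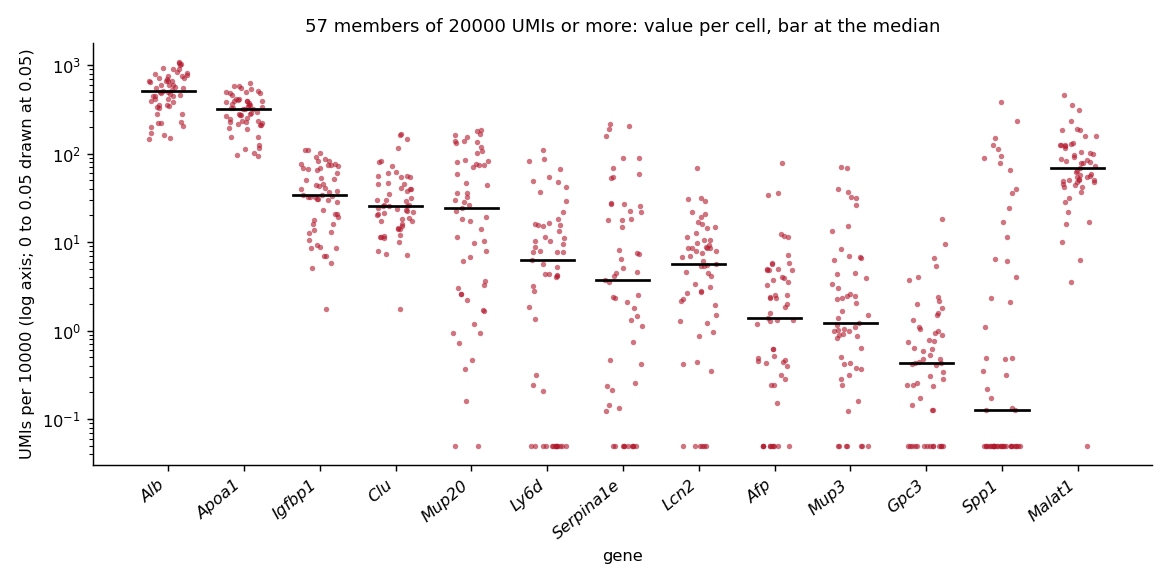
UMIs per 10000 (y, log axis, with values from 0 to 0.05 drawn at 0.05) of 13 genes (x) in each of the 57 members of 20000 UMIs or more; each point is a barcode, spread sideways at random, and the bar is the median. Alb and Apoa1, both rule genes, form narrow bands with medians of 507 and 323, while Mup20, Serpina1e, Ly6d and Spp1 points spread from their highest values down to 0.

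Pairs of these genes did not sort the high-UMI members into clear classes. Spp1 and Clu had a Spearman rho of 0.406 over the 57 barcodes, Gpc3 and Afp 0.308, Hpd and Ly6d -0.332 and Mup3 and Ly6d -0.263. All 57 come from 1 library and differ in depth, so these coefficients are descriptions. In the 32 members of 5000 to 20000 UMIs Ly6d and Lcn2 had 0.621 and Mup3 and Ly6d -0.504.

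Among members of at least 2000 UMIs, nearly every barcode held a UMI of the periportal list and fewer held any of the pericentral list. The 194 members below 2000 UMIs were not examined in this way. With 2000 UMIs per barcode, 13 periportal genes (all 13 higher in members than in other barcodes) and 18 pericentral genes (7 of 9 tested higher, 2 lower) divided the 57 high-UMI members into 36 with UMIs of the periportal list only, 20 with both, 1 with the pericentral list only and 0 with neither. The 71 members of 2000 to 20000 UMIs gave 38, 30, 1 and 2. Cyp2f2, a P450 enzyme of the portal side, was seen in 3 of 57 and 7 of 71, Cyp2e1 in 1 and 4, and both together in 0 of either. Among high-UMI members the lipid droplet enzyme Hsd17b13 was seen in 39, Cps1 in 30, Ass1 in 21, Pck1 in 20 and Gulo, a gene of the pericentral list, in 10. Other periportal genes were rarer, with Gls2 in 4, Hal in 3 and Hsd17b6 in 2, and Axin2, Lgr5 and Tbx3 of the pericentral list were in 0. The 2 lists differ in size and in how often their genes were seen, so these counts do not place the members along the lobule.

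Low-UMI members changed in make-up with their UMI total. Mup3 stood at 9305 CPM below 1000 UMIs, 7290 at 1000 to 2000, 3879 at 2000 to 5000 and 1499 at 5000 to 20000. Cyp2e1 stood at 910, 446, 326 and 37.0 CPM over the same ranges, where the value at 2000 to 5000 UMIs rests on 38 UMIs in 3 members, 94.7% of them in 1, and Serpina3k at 6307, 4755, 2661 and 961. Fabp1 ran the other way at first, from 7484 to 11816, 18170 and 18020 CPM, before 2614 in high-UMI members. Gm42418, an annotated gene overlapping ribosomal RNA sequence, stood at 79868 CPM below 1000 UMIs and 9172 in high-UMI members, and in the other barcodes at 29544 CPM.

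The Mup genes that were nearly missing in high-UMI members also divided the low-UMI members. At least 1 UMI of Mup1, Mup7, Mup9, Mup11 or Mup17 was present in 105 of the 265, and these had fewer UMIs (median 865 against 1176) and more mitochondrial UMIs (2.49% against 1.18%) than the 160 without. At 500 UMIs per barcode Cyp2e1 was seen in 28 of the 105 and 4 of the 160, Slco1b2 in 24 and 4, Cyp8b1 in 13 and 0, and the carboxylesterase gene Ces3a in 45 and 8. Fabp1 was seen in 45 of 105 (42.9%) and 120 of 160 (75%), Ly6d in 12 and 47, Lcn2 in 19 and 60, Igfbp1 in 11 and 35 and Afp in 6 and 17. Unthinned, Cyp2e1 was present in 36 and 7, Ces3a in 59 and 15, Ly6d in 16 and 78 and Afp in 8 and 44. Barcodes with these Mup UMIs thus more often held Cyp2e1, Cyp8b1, Slco1b2 and Ces3a and less often Ly6d and Lcn2. These are single genes, and no list of P450, transporter or esterase genes was counted for this division. The division was chosen after the values were seen, and the 2 sets also differ in Gm42418, at 69560 and 34773 CPM.

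**Figure D5:**
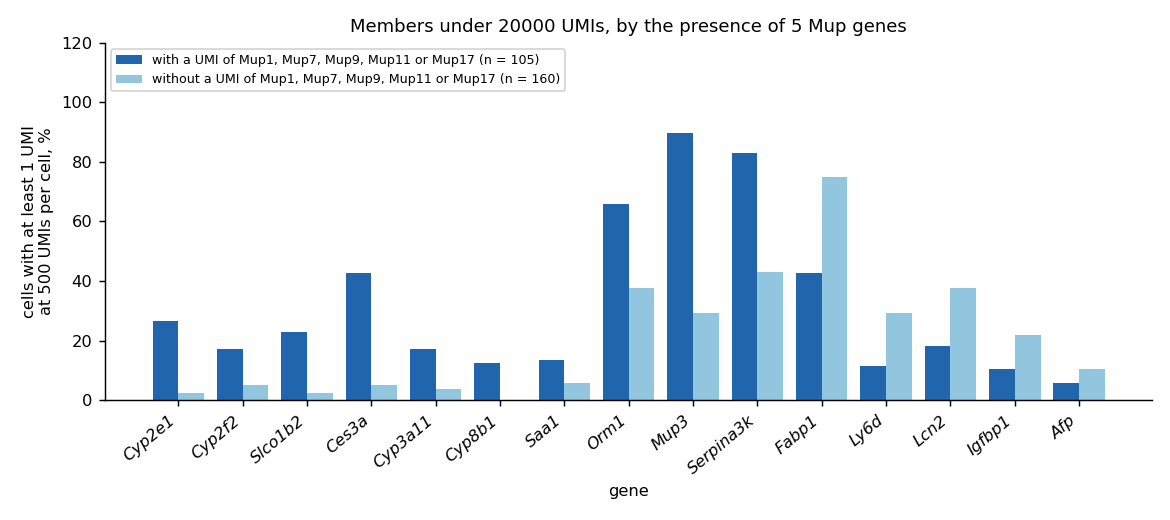
Percent of barcodes with at least 1 UMI (y) of 15 genes (x) among the 265 members under 20000 UMIs after thinning each to 500 UMIs; dark bars are the 105 with and light bars the 160 without a UMI of Mup1, Mup7, Mup9, Mup11 or Mup17, in 1 library with no error bars. Dark bars are taller for Cyp2e1 (26.7 against 2.5%) and its neighbours up to Serpina3k, and light bars for Fabp1, Ly6d, Lcn2, Igfbp1 and Afp.

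In the VitA-Col1a1+ library the 5 members had 97626, 5113, 4071, 1186 and 726 UMIs, mitochondrial shares of 4.99, 5.22, 0.0983, 24.5 and 19.7% and rule genes at 1062, 512, 710, 953 and 744 per 10000. The other 2724 barcodes had medians of 16697.5 UMIs and 2.91%. The first barcode gave 89.8% of the UMIs of the 5 and held Spp1 at 303, Mup20 at 152, Clu at 98.0 and Igfbp1 at 15.1 UMIs per 10000. None of the 5 had a UMI of Lrat, the retinol esterifying enzyme of stellate cells, or of Col1a1, the gene whose promoter drove the GFP of the gate, while 70.5 and 72.2% of the other barcodes did. These shares are not thinned, and all but the first of the 5 lay far below the others' median of 16697.5 UMIs. Col3a1 was present in 2 of the 5, Dcn in 3 and Malat1 in 3. The highest barcodes outside the limit had rule genes at 454, 421 and 376 per 10000, and Alb was seen at 2000 UMIs in 2.21% of the other barcodes (10.8% unthinned), against 34.9% in the VitA-Col1a1- library.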

How the data were processed

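The deposited files hold counts, whole UMIs per gene and barcode, that the authors made with Cell Ranger on mm10 (3.1.0 in the submitters' processing notes, while the file header of the VitA-Col1a1- library gives 6.1.2). The labels name the v3.1 and the v2 chemistry in different fields, and strand handling is not given in the sources used here. All 31053 genes and all deposited barcodes of at least 500 UMIs were used. UMIs were summed over members and over the other barcodes and scaled to CPM, and genes with a mean of 10 CPM over the 2 groups counted as higher or lower past 2-fold. With 1 library per group no test was run. Ratios carry 95% conditional binomial intervals and shares 95% Clopper-Pearson intervals, which cover counting error only, and a count of 0 was set at 3 UMIs. Shares of barcodes were compared after thinning to 2000 or 500 UMIs (seed 7). The endothelial or macrophage barcodes used for the background held at least 3 UMIs of that list and 0 of the other marker lists, Clu and Spp1 aside. Positions come from GENCODE M21 (GRCm38), which matched 30934 genes. The ratios were tested on simulated data. Named genes come from the lists, from the 20 highest and 10 lowest ratios at 50 CPM, or are said to be named after their values were seen. The members and lists were chosen with earlier results of these data known. Scrublet ran in scanpy 1.11.5, TMM scaling in edgeR 4.0.16, the intervals in scipy 1.17.1 and the rest in Python 3.11.15.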

Additional observations from a re-analysis of the deposited data

How the results depend on the processing

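Setting the rule at 250 per 10000 gave 9.95 UMIs per 10000 of other-type markers (8.27 as reported) and 10 members in the VitA-Col1a1+ library. At 1000 there were 121 members, 28 of them high-UMI, 6.78 marker UMIs, a Cyp2e1 ratio of members to other barcodes of 0.971, and 1 member in VitA-Col1a1+. At 2000 there were 9 members with medians of 810 UMIs and 1.09% mitochondrial UMIs, 19.3 marker UMIs, 3 hepatocyte function genes lower, an Spp1 ratio of 0.722, and 0 members in VitA-Col1a1+. Among barcodes of at least 2000 UMIs there were 128 members, with medians of 12077 UMIs (others 10267) and 3.73%, 7.0 marker UMIs, 0.583% in low-UMI members and 30 function genes higher in high-UMI members (16 as reported), and 3 members in VitA-Col1a1+, where the others had a median of 16968 UMIs. A limit of 20% mitochondrial UMIs gave 9392 UMIs and 3.59% in the others, and dropping the condition on Pecam1 and Ptprc gave 8.64 marker UMIs. Requiring 0 UMIs of 8 further markers left 107 members with 1066 UMIs, 1.36% and 5.84 marker UMIs. Of these 3 were high-UMI (11.3% against 1.14% in low-UMI members), with 28 function genes higher in them and a Gpc3 ratio of 0.348, and 2 were left in VitA-Col1a1+ with 1.90 marker UMIs. A minimum of 10 CPM over all barcodes of the library tests fewer genes and gave 75 function genes higher (131 as reported). With the division of members at 5000 UMIs 89 were above it, at a median of 5.81%, and with 10 Malat1 UMIs per 10000 102 were, at 5.82%. Leaving out Scrublet's marks, TMM scaling, means over barcodes and CPM outside the rule and mitochondrial genes turned the direction of no named gene past 2-fold. Among genes within 2-fold, the mean over barcodes took members against others from 1.22 to 0.618 for Scd2 and from 1.62 to 0.496 for Btg2. Of the alternative values of ratios and shares, 257 lay within the counting interval of the reported value and 370 outside it, and 3 more were turned in direction. Of the genes past 2-fold, 201 of 203 values for members against others and 237 of 238 for high-UMI against low-UMI members kept their direction. The exceptions are among those printed above, and the causes were not tested. The depth of low-UMI members limits every statement on genes absent from a single barcode. No paired analysis was possible because each group is 1 library.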

Other observations

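Further genes more than 5-fold higher in high-UMI than in low-UMI members, named after their values were seen, included Serpina7, the thyroxine-binding globulin, at 297 against 53.7 CPM (ratio 5.53, counting interval 3.89 to 8.13). Efna1, an ephrin ligand, stood at 235 and 38.6 CPM (6.09, 4.03 to 9.67) and was seen in 54 of 57 high-UMI and 14 of 265 low-UMI members. Txnip, which inhibits thioredoxin, stood at 576 and 106 CPM (5.45, 4.24 to 7.13), Alcam, an adhesion molecule, at 440 and 87.2 CPM (5.05, 3.83 to 6.79) and Lpin1, a phosphatidate phosphatase, at 116 and 20.1 CPM (5.77, 3.26 to 11.3). These counts of barcodes are not thinned.

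The 7 barcodes of the VitA+Col1a1+ DEN+WAD library that met the rule had 80850, 3100, 2081, 1884, 906, 782 and 574 UMIs. Their mitochondrial shares, in that order, were 4.77, 0.516, 0.432, 0.106, 0.221, 0.512 and 4.53%. The first had Alb at 844, Igfbp1 at 150 and Spp1 at 0 UMIs per 10000, and 5 of the other 6 had 0 UMIs of Malat1. The 10 barcodes of the VitA-Col1a1- library that reached 500 per 10000 but held Pecam1 or Ptprc UMIs had 534 to 60339 UMIs.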
